A study of Mus musculus with 116 samples.

Results

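The linker histone genes are described here across mouse oocytes and early embryos, as H1foo, the oocyte linker histone, set against 6 somatic members of the family. The members were taken by gene symbol: H1foo, Hist1h1a, Hist1h1b, Hist1h1c, Hist1h1d, Hist1h1e and H1f0. All 7 were found, among 24028 gene symbols held by every expression table. None of them was present in more than 1 row of a table.

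The series followed RNA polymerase II and gene activation from the oocyte to the blastocyst. Of its 116 samples, 5 total RNA libraries carry the comparisons below, 2 libraries of blastocyst inner cell mass (ICM) serve as a note, and 109 were not analysed here. Each total RNA library came from a pool of about 100 wild-type oocytes or embryos and was depleted of ribosomal RNA. Values were FPKM, which divide the fragment count of a gene by its transcript length and the library's size, so levels of different genes can be set side by side.

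All females were 8 weeks old and had been injected with the gonadotropins PMSG and hCG. Per the series description, wild-type embryos came from C57BL/6N females crossed with PWK males. MII oocytes, mature oocytes arrested in the second meiotic division, were taken 13 h after hCG. Zygotes at PN5, the last pronuclear stage, were taken at 30 h and early 2-cell embryos at 36 h. Both late 2-cell groups began as zygotes collected at 23 h. Culture for 14 h followed, with 0.1% DMSO for the control group and 60 uM DRB for the group labelled mTBE. DRB reversibly stops RNA polymerase II from elongating its transcripts. Both late 2-cell groups were then released and kept in culture for 12 h. For MII, PN5 and early 2-cell no such treatment or culture is listed. Where either late 2-cell group is compared with them, stage cannot be told apart from treatment and culture. ICM was collected 98 h after hCG and sequenced after Smart-seq2, which primes on poly(A) tails. Each of the 5 total RNA groups held 1 library, so no difference between them has a replicate check and no p-value is given.

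Linker histone H1 binds the nucleosome where DNA enters and leaves it. Most somatic H1 genes lie in the main histone cluster and are transcribed during S phase, and their mRNAs, like those of the core histones, end in a stem-loop in place of a poly(A) tail. Oocytes store a germ-cell form, encoded by H1foo, which enters sperm chromatin after fertilisation and is later replaced by somatic forms.

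For 4 of these genes, the 130 bases just before the transcript start are shown, from 5′ to 3′ on the gene's strand, because the H1foo level moved against the other 3 and because Hist1h1a, Hist1h1b and Hist1h1c were the somatic genes that differed most by stage. Capitals mark the letters AAACACA (the H1 box, an element known from somatic H1 promoters), CCAAT or its reverse complement ATTGG (the CCAAT box) and TATAAA (the TATA box).
H1foo: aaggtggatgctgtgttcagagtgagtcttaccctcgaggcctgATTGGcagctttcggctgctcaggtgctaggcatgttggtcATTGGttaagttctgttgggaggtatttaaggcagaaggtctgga
Hist1h1a: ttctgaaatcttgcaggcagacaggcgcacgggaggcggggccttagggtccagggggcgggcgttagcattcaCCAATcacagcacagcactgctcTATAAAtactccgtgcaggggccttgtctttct
Hist1h1b: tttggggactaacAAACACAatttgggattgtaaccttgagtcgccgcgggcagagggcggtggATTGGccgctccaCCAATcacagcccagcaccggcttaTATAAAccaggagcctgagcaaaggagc
Hist1h1c: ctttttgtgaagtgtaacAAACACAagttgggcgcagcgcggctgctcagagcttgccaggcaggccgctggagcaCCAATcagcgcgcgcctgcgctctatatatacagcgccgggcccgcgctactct

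These sequences were taken from RefSeq in build GRCm38.p6, which is later than the build named for the expression tables. H1foo lies on chromosome 6 and its stretch spans chr6:115944801-115944930 on the plus strand. The stretch of Hist1h1a spans chr13:23763538-23763667 on the plus strand. That of Hist1h1b spans chr13:21780626-21780755 on the minus strand, and that of Hist1h1c spans chr13:23738677-23738806 on the plus strand. Hist1h1d and Hist1h1e are on chromosome 13 too, and H1f0 is on chromosome 15. No annotated gene overlapped any of the 7.

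The motifs were searched on both strands in the 250 bases before the start, with all 7 members matched to 1 window each. AAACACA was found in 4 members, Hist1h1b, Hist1h1c, Hist1h1d and Hist1h1e, and in 6.25% of the 32851 windows of all genes. Its first base lay 117, 112, 122 and 115 bases before the start in those genes. The longest run of letters shared by these 4 windows was AACAAACACA, which 71 windows of the whole set held (0.216%). It contains the H1 box. Hist1h1a, H1f0 and H1foo held no AAACACA.

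The CCAAT box was present in 6 of the 7 windows and in 33.8% of all windows. In the 5 cluster genes a copy began 51 to 56 bases before the start on the gene's own strand. The longest run shared by those 5 was ACCAATCA, held by 645 windows (1.96%), and it contains CCAAT. H1foo held the box only on the other strand, beginning 86 and 45 bases before the start. TATAAA was found in Hist1h1a, Hist1h1b, Hist1h1d and Hist1h1e and in 12.4% of all windows. TATATA, which can overlap TATAAA, was found in Hist1h1b, Hist1h1c, Hist1h1d and Hist1h1e and in 5.25%. GGGCGG, the GC box, was in Hist1h1a, Hist1h1b and Hist1h1e and in 32.7%. H1f0 held none of these letters, and its 250 bases were the richest in G and C of the 7 windows (74.4%, against 47.6% to 54.8% in the others). A match is a description of the sequence and not a binding site.

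**Figure D1:**
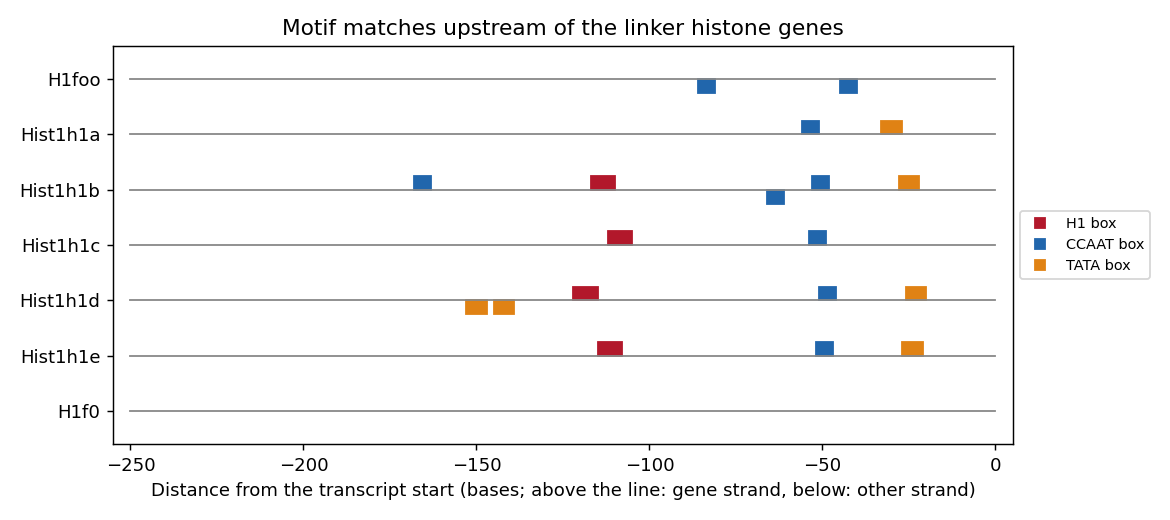
Matches to the H1 box, the CCAAT box and the TATA box (coloured blocks) in the 250 bases before the transcript start of the 7 genes; the horizontal axis is the distance from the start in bases, with matches on the gene's strand above each line and on the other strand below it. The CCAAT boxes of the 5 cluster genes line up at 51 to 56 bases, the H1 boxes of 4 of them at 112 to 122 bases, and H1f0 carries no match.

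The libraries were first compared with their labels. All 7 markers of the oocyte reached 1 FPKM in all 5 total RNA libraries. Of 6 markers of the 2-cell stage, 0 reached 1 FPKM in MII, 2 in PN5, 6 in early 2-cell, 5 in control and 6 in mTBE. Of 9 markers of cumulus and granulosa cells, which surround the oocyte, 2 reached 1 FPKM in each of the first 3 stages and 7 in each late 2-cell library. Their summed level was 34.8 to 137 FPKM, mostly from Serpine2 (30.6 to 124 FPKM). Fshr and Inha were listed at no more than 0.189 FPKM, whereas Cyp19a1 was at 2.85 to 12.2 FPKM, Amhr2 reached 16.7 in control, Foxl2 7.20 in mTBE and Tnfaip6 at least 4.79 in both late 2-cell libraries. The 5 sperm markers summed to 2.49 to 6.85 FPKM: Prm1 was listed at 0 in every library, Prm2 was highest in PN5 (5.28 FPKM) and Tnp1 in mTBE (4.98 FPKM). Prm2 was at 3.69 FPKM in the MII oocytes as well, before fertilisation. The part of other cells in the values below was not tested.

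One table holds PN5 with the late 2-cell pair, whereas the MII library and the early 2-cell library stand alone in theirs, and tables were normalised separately. The FPKM of a whole library summed to 288487 in MII, 354359 in PN5, 212639 in early 2-cell, 350614 in control and 358284 in mTBE. Levels in the early 2-cell library therefore stand on a smaller total than the others. Shares and ratios within a library do not depend on this scaling. Because each library is a bulk pool scaled to its own total, fewer cells with the RNA and less RNA per cell cannot be told apart.

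H1foo was the most abundant linker histone transcript of the oocyte and lost that place by PN5. Its level was 1138 FPKM in MII, 310.7 in PN5, 124.6 in early 2-cell, 58.8 in control late 2-cell and 52.1 in mTBE late 2-cell embryos. Each library was lower than the one named before it. Among all genes it ranked 8 in MII, 128 in PN5, 231 in early 2-cell, 1177 in control and 1254 in mTBE. Relative to MII, 27.3% was left in PN5, 11.0% in early 2-cell, 5.17% in control and 4.58% in mTBE. The highest level was 21.8 times the lowest.

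Hist1h1a, a somatic subtype of the main histone cluster, was abundant in the oocyte already and dominated the family from PN5 on. It was at 925 FPKM in MII, 1915 in PN5, 4419 in early 2-cell, 4252 in control and 5103 in mTBE. MII was the lowest library and mTBE the highest, 5.52 times above it. It ranked 11 among all genes in MII, 4 in PN5 and 2 in each of the 3 libraries of 2-cell embryos. The next highest somatic level was that of H1f0 in mTBE, 81.1 FPKM.

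**Figure D2:**
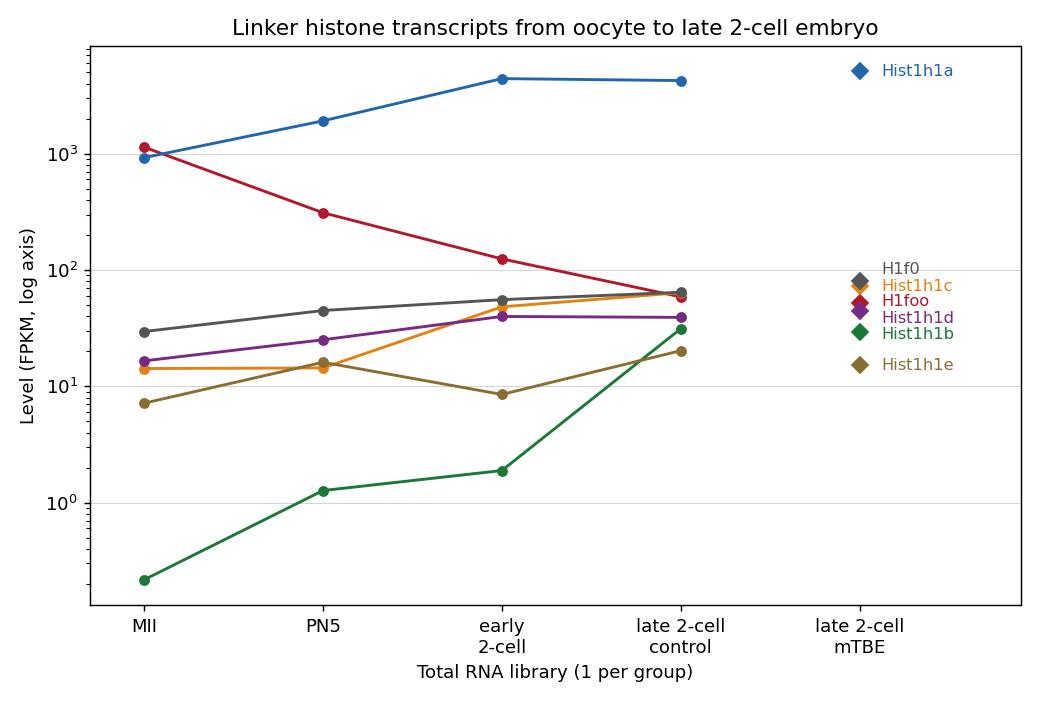
Level of each linker histone gene (FPKM, log axis) in the 5 total RNA libraries, with 1 point per library; lines join the 4 stages without inhibitor and diamonds show the mTBE late 2-cell library. The H1foo line runs from 1138 FPKM in MII to 58.8 in the control late 2-cell library and crosses that of Hist1h1a between MII and PN5, while Hist1h1b stands lowest until the late 2-cell stage.

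The make-up of the family was compared as shares within a library, which are free of the scaling between tables. H1foo made up 53.4% of the summed FPKM of the 7 genes in MII, 13.4% in PN5, 2.65% in early 2-cell, 1.30% in control and 0.965% in mTBE. Hist1h1a made up 43.4%, 82.3%, 94.1%, 93.9% and 94.5% in the same order. The ratio of Hist1h1a to H1foo was 0.813 in MII, 6.16 in PN5, 35.5 in early 2-cell, 72.4 in control and 98.0 in mTBE. The ratio thus grew at every step, by 7.58 times from MII to PN5, 5.75 times from PN5 to early 2-cell and 2.04 times from early 2-cell to control. It was 1.35 times higher in mTBE than in control. From MII to PN5 the sum of the 7 genes differed by only 1.09 times as deposited (2130 and 2327 FPKM), across separately scaled tables. In percent of the library's summed FPKM it was 0.738 in MII and 0.657 in PN5. The shares of H1foo and Hist1h1a thus moved within a total that differed little, in a direction that depends on the scaling.

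The share of H1foo depends on Hist1h1a being counted. Without Hist1h1a, H1foo made up 94.4% of the other members in MII, 75.3% in PN5, 44.7% in early 2-cell, 21.2% in control and 17.6% in mTBE. The order of the stages was the same. H1foo stood 16.8 times above the sum of the 5 less abundant somatic genes in MII, 3.05 times in PN5, 0.809 times in early 2-cell, 0.269 times in control and 0.214 times in mTBE. Those 5 genes together therefore passed H1foo only at the early 2-cell stage, later than Hist1h1a alone.

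**Figure D3:**
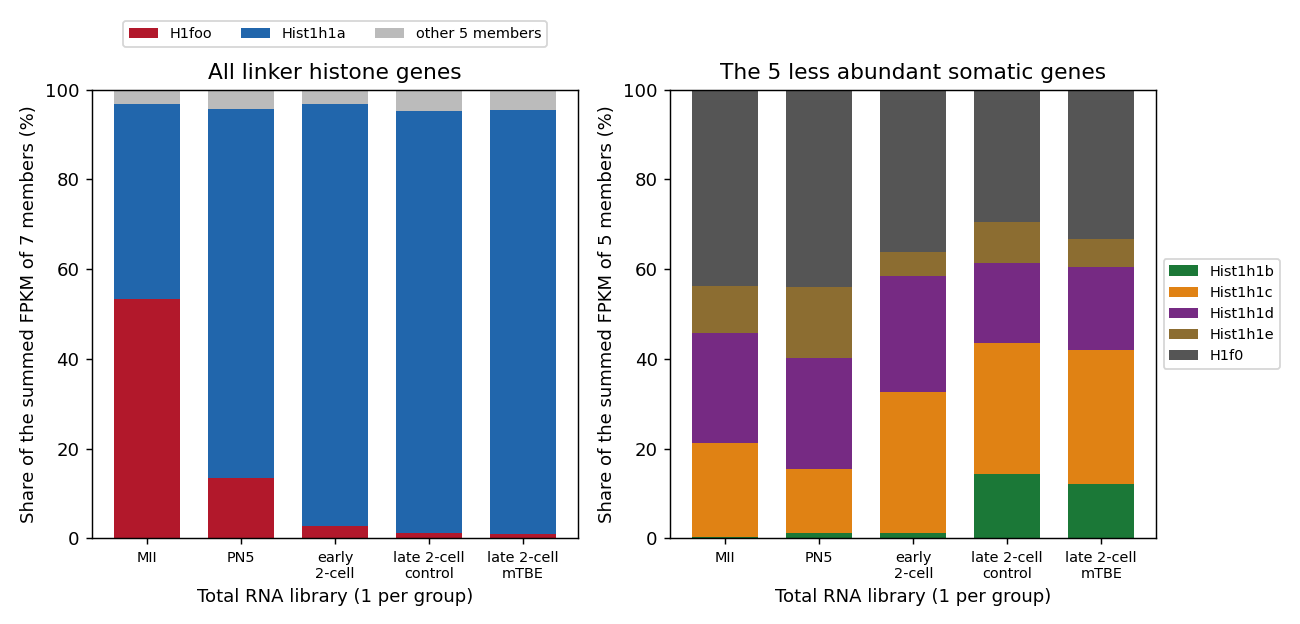
Share of each gene in the summed FPKM (percent) per total RNA library, for all 7 genes on the left and for the 5 less abundant somatic genes on the right; each bar is 1 library. H1foo shrinks from 53.4% in MII to 1.30% and 0.965% in the late 2-cell libraries on the left, and Hist1h1b appears with 14.3% and 12.0% in the late 2-cell libraries on the right.

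The less abundant somatic genes did not move as a block. Hist1h1b, a subtype typical of dividing cells, was at 0.217 FPKM in MII, 1.27 in PN5, 1.89 in early 2-cell, 31.2 in control and 29.3 in mTBE. It was close to the floor of the scale in the first 3 libraries and well above it in both late 2-cell libraries. The highest level was 144 times the lowest, a ratio that rests on a value below 1 FPKM. Against PN5, within a shared table, it stood 24.6 times higher in control and 23.1 times higher in mTBE.

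Hist1h1c, a widely expressed subtype, was at 14.2 FPKM in MII, 14.4 in PN5, 48.2 in early 2-cell, 63.8 in control and 73.1 in mTBE. The first pair of libraries was nearly equal, and all 3 libraries of 2-cell embryos lay above them. Hist1h1d, another cluster subtype, was at 16.6, 25.1, 39.9, 39.1 and 44.7 FPKM in the same order. Its early and late 2-cell levels were close to each other. Hist1h1e, a common subtype of somatic cells, was at 7.16, 16.1, 8.51, 20.2 and 15.1 FPKM and as deposited followed no order of stages. Its difference of -0.85 in log2(FPKM + 1) from PN5 to early 2-cell, where the FPKM total is smaller, became -0.18 after each library was rescaled to an equal sum and -0.05 with the median log2 ratio set to 0. The coding sequences of Hist1h1c, Hist1h1d and Hist1h1e are closely similar, and how shared reads were assigned is not given in the sources used here, so these 3 levels are uncertain one by one.

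H1f0, the replacement form of differentiated and non-dividing cells, whose mRNA is polyadenylated, was at 29.6 FPKM in MII, 44.8 in PN5, 55.6 in early 2-cell, 64.3 in control and 81.1 in mTBE. It was the most abundant of the 5 minor somatic genes in all 5 libraries, with 43.7% of their sum in MII, 44.1% in PN5, 36.1% in early 2-cell, 29.4% in control and 33.3% in mTBE. As deposited, all 6 somatic members had their lowest level in MII, where H1foo had its highest. For Hist1h1c this did not hold under other scalings: PN5 minus MII was -0.27 in log2(FPKM + 1) with each library rescaled to an equal sum and -0.29 with the median log2 ratio set to 0.

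Differences between libraries were taken as log2(FPKM + 1). A gene that reached 1 FPKM in either library was called higher or lower when it differed by at least 1 on that scale, about 2-fold. From MII to PN5, across fertilisation, H1foo fell by 1.87, rank 396 from the lowest of 10711 genes. Of the 6 somatic genes, 2 were called higher and 0 lower, Hist1h1a by 1.05 and Hist1h1e by 1.07. Over all genes 8.77% were called higher and 9.23% lower. The somatic median was 0.74 and that of all genes 0.24. Hist1h1b differed by 0.90, H1f0 by 0.58, Hist1h1d by 0.57 and Hist1h1c by 0.02, none of them past the rule. The 2 somatic calls lie at the threshold and across tables. With each library rescaled to an equal sum 1 somatic gene was called higher, Hist1h1b (1.39). With the median log2 ratio of genes from 5 FPKM set to 0 (it was 0.33) 0 were, and Hist1h1b differed by 0.72. The Hist1h1b call rests on levels near the floor, 0.217 FPKM in MII and 1.27 in PN5. These became 0.753 and 3.58 with the equal sum, against an unchanged pseudocount of 1 FPKM. H1foo differed by -2.17 and -2.20 under these scalings.

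From MII to early 2-cell H1foo fell by 3.18, rank 87 from the lowest of 10669 genes. Of the somatic genes 4 were called higher and 0 lower: Hist1h1a by 2.26, Hist1h1c by 1.69, Hist1h1b by 1.25 and Hist1h1d by 1.22. Over all genes 3.98% were called higher and 28.8% lower, and the median was -0.58 against 1.23 for the somatic genes. These shares depend on the scaling. With an equal sum and with the median ratio set to 0, 425 genes higher became 2038 and 913. The 3075 lower became 2547 and 1597. Under both scalings 5 somatic genes were called higher, and with a filter of 5 FPKM 3 were. H1foo differed by -2.75 and -2.61 under the 2 scalings. Hist1h1a ranked 55 from the highest. H1f0 differed by 0.89 and Hist1h1e by 0.22.

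From PN5 to early 2-cell H1foo fell by 1.31, and Hist1h1c (1.68) and Hist1h1a (1.21) were called higher, so that 2 of 6 somatic genes were higher and 0 lower. Over all genes 6.75% were called higher and 39.2% lower, with a median of -0.77. H1foo ranked 2859 from the lowest of 10837 genes, a fall shared with many genes. Relative to the other genes it was smaller: H1foo differed by -0.58 after rescaling to an equal sum and by -0.45 with the median log2 ratio (-0.87) set to 0, and neither passed the rule. Under those scalings 5 and 4 somatic genes were called higher. Hist1h1d differed by 0.65, Hist1h1b by 0.35, H1f0 by 0.30 and Hist1h1e by -0.85.

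The step from early 2-cell to control late 2-cell spans the main wave of genome activation and differs in culture with DMSO as well. H1foo fell by 1.07 over it, while 49.6% of all genes were called higher and 8.62% lower. It ranked 1053 from the lowest of 13126 genes. Hist1h1b was called higher by 3.48 and Hist1h1e by 1.16, so that 2 of 6 somatic genes were higher and 0 lower. As deposited, Hist1h1a (-0.06) and Hist1h1d (-0.03) were nearly level, but after rescaling to an equal sum they differed by -0.78 and -0.74, and with the median ratio set to 0 by -0.66 and -0.61. H1f0 (0.21) and Hist1h1c (0.40) differed little. The median of the somatic genes, 0.30, was below that of all genes, 0.99. With the median log2 ratio (0.60) set to 0, or after rescaling to an equal sum, Hist1h1b alone was called higher, and H1f0 and Hist1h1c changed sign to values from -0.19 to -0.51.

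Over the whole interval from MII to control late 2-cell H1foo fell by 4.25, rank 97 from the lowest of 13255 genes, and 6 of 6 somatic genes were called higher and 0 lower. Over all genes 36.8% were called higher and 17.9% lower. The somatic median was 1.74 and that of all genes 0.50. Hist1h1b differed by 4.73, Hist1h1a by 2.20, Hist1h1c by 2.09, Hist1h1e by 1.38, Hist1h1d by 1.19 and H1f0 by 1.10. Under the other scalings 4 and 5 somatic genes were called, with H1f0 at 0.83 and 0.99 and Hist1h1d at 0.95 after rescaling.

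**Figure D4:**
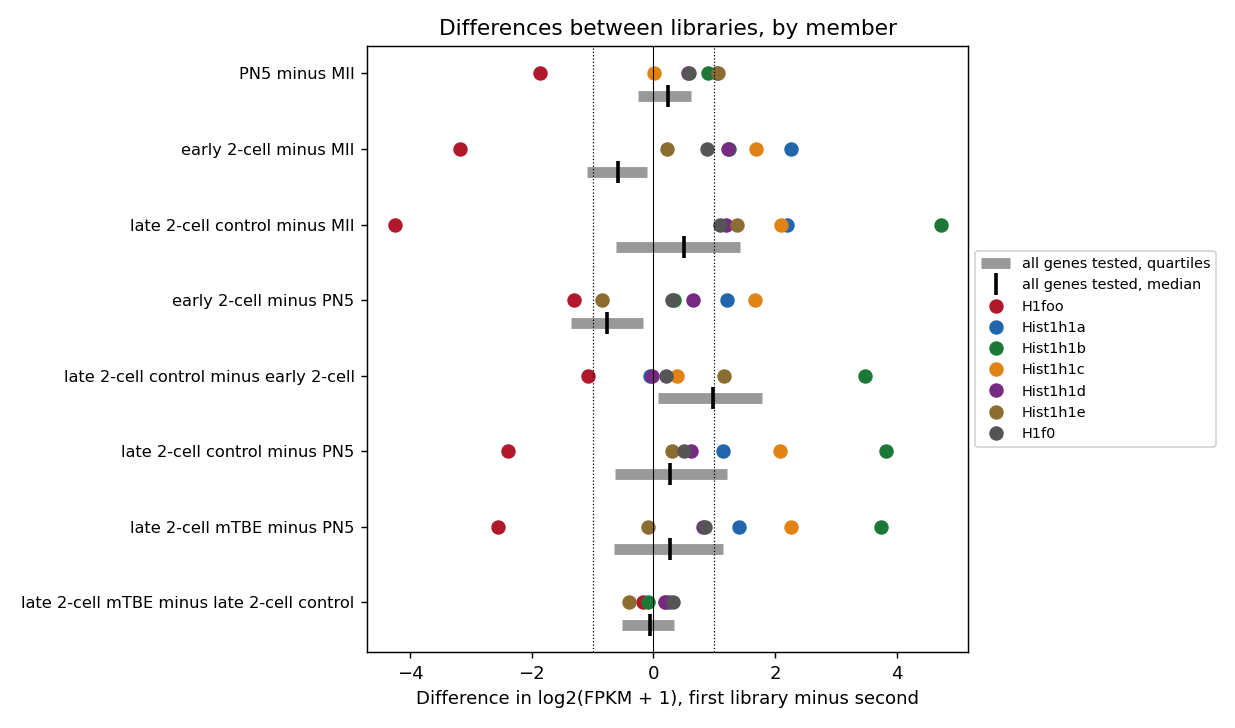
Difference in log2(FPKM + 1) of each linker histone gene in 8 comparisons of 2 libraries (coloured points), above a grey bar for the quartiles of all genes tested and a black tick for their median; dotted lines mark a difference of 1 in each direction. H1foo is the leftmost point in each comparison but the last, from -1.07 to -4.25, and in the comparison of mTBE with control all 7 genes lie between -0.40 and 0.33.

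The late 2-cell libraries share a table with PN5, so comparisons with PN5 need no step between tables. H1foo fell by 2.38 from PN5 to control and fell by 2.55 from PN5 to mTBE, and both comparisons use the same PN5 library. In control 3 of 6 somatic genes were called higher and 0 lower, with 30.5% of all genes called higher and 17% lower. In mTBE 3 of 6 were called higher and 0 lower as well, with 29.4% of all genes higher and 17.7% lower. The genes were Hist1h1b (3.83 in control, 3.74 in mTBE), Hist1h1c (2.07 and 2.27) and Hist1h1a (1.15 and 1.41). Not past the rule were Hist1h1d (0.62 and 0.81), H1f0 (0.51 and 0.84) and Hist1h1e (0.31 and -0.08).

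The comparison of mTBE with control asked how the embryos stood after transcription had been blocked and released. No linker histone gene was called: 0 of 6 somatic genes were higher and 0 lower, and H1foo differed by -0.17. Over all genes 5.57% were called higher and 9.99% lower. H1f0 was 1.26 times the control level, Hist1h1a 1.20 times, Hist1h1c 1.15 times, Hist1h1d 1.14 times, Hist1h1b 0.939 times, H1foo 0.886 times and Hist1h1e 0.747 times. The somatic median was 0.19 and that of all genes -0.05. With 1 library on each side, differences of this size cannot be set against the spread between embryo pools.

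Calls over all genes depend on the scaling, which touches the background shares above. The equal sum also raised FPKM values, H1foo in MII from 1138 to 3944, against an unchanged pseudocount of 1 FPKM. It therefore acts in part like a smaller pseudocount, and these effects were not separated. In mTBE against control, within a table, 765 genes higher became 1859 with the equal sum and 1432 with a pseudocount of 0.1. The part of called genes that were higher was 48.7% from MII to PN5, and 27.4% after rescaling to an equal sum and 20.9% with the median ratio set to 0. From MII to early 2-cell it was 12.1%, then 44.4% and 36.4%. From PN5 to early 2-cell it was 14.7%, then 51.6% and 47.2%, and from early 2-cell to control 85.2%, then 66.5% and 70.6%. For mTBE against control, within a table, it was 35.8%, then 46.9% and 43.5%. H1foo had the lower level in the later stage in the 7 comparisons between stages, and in mTBE against control, under each of these scalings.

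H1foo was then set beside 16 other genes known from the oocyte, in percent of their MII level. In PN5 H1foo was at 27.3% and the median of the 16 genes at 68.3% (8.65% to 239%), and 4 of them had kept less than H1foo. In early 2-cell the median was 37.4% (4.31% to 149%), and 3 had kept less. In control the median was 19.6% and in mTBE 22.4%, and 1 gene had kept less in each: Mos, the kinase that holds the oocyte in meiotic arrest, with 2.02% and 1.74%. In control 8 of the 16 stood above their early 2-cell level, whereas H1foo did not, though the early 2-cell library has the smaller FPKM total.

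The oocyte genes with the highest mean level over the 5 libraries, a choice that favours genes that stay high, did not follow H1foo. Some of those highest in MII did fall: Gdf9, a growth factor of the oocyte, was at 18.8% of its MII level in control, Padi6 at 7.15% and Zar1, an RNA-binding protein of the oocyte, at 11.1%. Bcl2l10, at 905 FPKM in MII against 906 for Zar1, was still at 78.1% of its MII level in control. Btg4, an adaptor for the removal of maternal mRNA, was at 736 FPKM in MII, 1582 in PN5, 711 in early 2-cell, 1529 in control and 1948 in mTBE. Bmp15, a relative of Gdf9, was at 582, 1393, 274, 766 and 1466 FPKM. Bcl2l10 and Oosp1, also abundant in oocytes, were at 707 and 1280 FPKM in control, against 905 and 572 in MII. Among the 16 genes 11 were called lower and 2 higher from MII to control, with a median difference of -2.30, against -4.25 for H1foo, beside 17.9% of all genes lower and 36.8% higher.

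**Figure D5:**
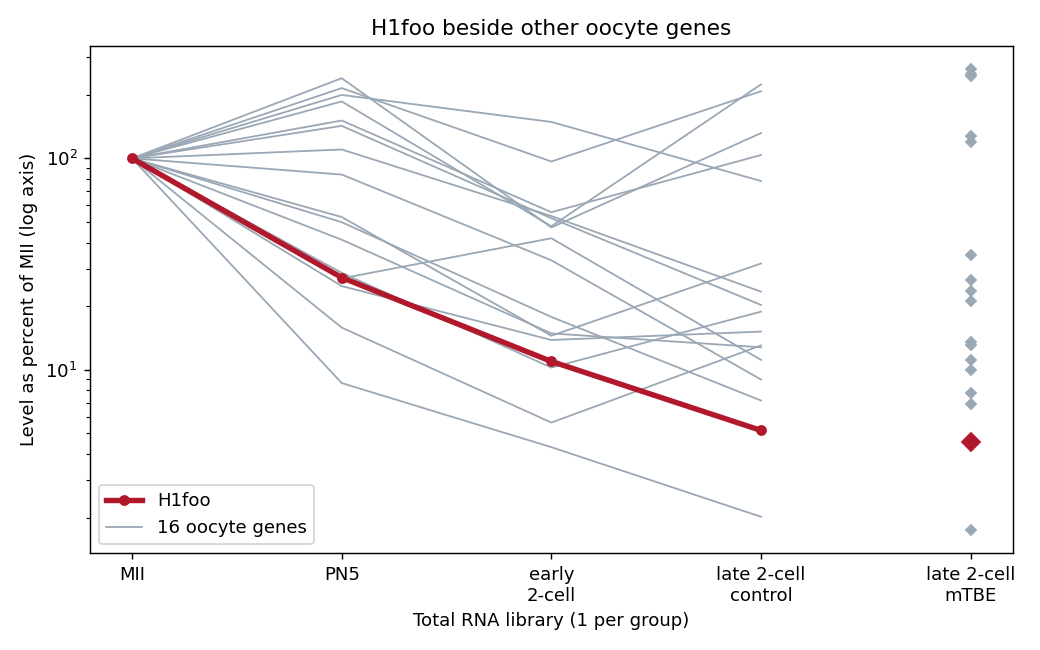
Level of H1foo (red) and of 16 other oocyte genes (grey) as percent of the MII level (log axis) in the total RNA libraries; lines join the 4 stages without inhibitor and diamonds show the mTBE late 2-cell library. H1foo ends at 5.17% and 4.58% in the late 2-cell libraries, and 1 grey gene, Mos, ends lower in each.

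The genes with the profiles closest to H1foo were found by the distance between log2(FPKM + 1) values over the 5 libraries, each centred on the gene's mean, among the 7604 genes that reached 10 FPKM in any of them. They were Atp2c2, a Golgi calcium pump (distance 0.51), Padi6, a component of the cytoplasmic lattices of the oocyte (0.65), Hsp90aa1, an inducible heat shock protein (0.68), Ccdc101 (0.72) and Fam151a (0.76). Padi6 was at 914 FPKM in MII, 456 in PN5, 162 in early 2-cell, 65.4 in control and 62.7 in mTBE. Hsp90aa1 was at 388, 113, 72.3, 19.2 and 16.9 FPKM. Both had their highest level in MII and their lowest in mTBE, like H1foo.

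For Hist1h1a the nearest profile was that of a core histone gene of the same cluster, Hist1h4a (distance 0.34), with 139 FPKM in MII, 266 in PN5, 510 in early 2-cell, 643 in control and 781 in mTBE. It was followed by Kctd13, an adaptor of a ubiquitin ligase (0.46), the transcription factors Foxc1 (0.70) and Lbx1 (0.72), and Hist1h2ah (0.73), an H2A gene. Of the other linker histones Hist1h1c ranked 10, Hist1h1d 23, H1f0 45, Hist1h1e 563 and Hist1h1b 4845 by nearness to Hist1h1a, and H1foo ranked 7481 of 7604. Within the family Hist1h1d and H1f0 had the closest profiles (0.30) and H1foo and Hist1h1b the most distant (7.91). These distances describe 5 libraries and share the scaling of each.

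Core histone genes give a measure of linker against nucleosome transcripts that is also free of scaling between tables. The 60 replication-dependent core histone genes summed to 5108 FPKM in MII, 5028 in PN5, 14447 in early 2-cell, 14847 in control and 17735 in mTBE. The 7 linker genes came to 41.7% of that sum in MII, 46.3% in PN5, 32.5% in early 2-cell, 30.5% in control and 30.4% in mTBE. H1foo alone came to 22.3% of it in MII, 6.18% in PN5, 0.863% in early 2-cell, 0.396% in control and 0.294% in mTBE. Hist1h1a came to 18.1%, 38.1%, 30.6%, 28.6% and 28.8%. The linker share was thus higher before the first cleavage than after it, and Hist1h1a was highest relative to the core histones in PN5.

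Of the core histone genes tested, 13 of 57 were called higher and 26 lower from MII to PN5, 40 of 58 higher and 0 lower from MII to early 2-cell, and 50 of 54 higher and 1 lower from PN5 to control. The shares of all genes were 8.77% higher and 9.23% lower, 3.98% and 28.8%, and 30.5% and 17% in these comparisons. The core histone median from MII to PN5 was -0.54, but 0.48 with a filter of 5 FPKM, so its sign depended on low genes. From PN5 to control the core histone median was 2.06, against 0.89 for the somatic linker genes. Hist1h4c, the most abundant of them, was at 321 FPKM in MII, 1066 in PN5, 1189 in early 2-cell, 2492 in control and 2947 in mTBE. Hist1h3f, an H3 gene, was at 266.5, 604, 866, 2037 and 2372 FPKM. In mTBE against control 2 of 53 were called higher and 13 lower, with a median of -0.25, beside 5.57% and 9.99% of all genes.

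The list of 4 further linker histone genes held none near H1foo in the oocyte. H1fx, a divergent somatic form, was at 52.3 FPKM in MII, 44.6 in PN5, 59.5 in early 2-cell, 18.3 in control and 16.8 in mTBE, and fell from early 2-cell to control. Hist1h1t, a testis form, was at 1.78, 1.48, 1.48, 6.59 and 5.35 FPKM and rose over that step. H1fnt and Hils1, both of spermatids, did not pass 0.402 FPKM, and so 2 of the 4 genes could be tested.

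Proteins that carry linker histones to and from chromatin formed a list of 8 genes. From MII to control 2 of 8 were called higher and 3 lower, with a median of -0.28, and in mTBE against control 0 were higher and 1 lower. The shares of all genes were 36.8% higher and 17.9% lower, and 5.57% and 9.99%. A list of 8 genes is too short to set its counts apart from these shares. Npm2, the oocyte nucleoplasmin that remodels sperm chromatin, was at 383 FPKM in MII, 434 in PN5, 226 in early 2-cell, 107 in control and 111 in mTBE. Npm1, its somatic relative, was at 175, 117, 86.2, 51.8 and 51.8 FPKM. Nasp, a histone chaperone that binds H1, was at 70.2, 163, 40.6, 56.7 and 36.7 FPKM, highest in PN5. The import receptor Kpnb1 was at 62.9, 60.6, 29.2, 52.7 and 36.2 FPKM.

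HMG proteins compete with H1 for nucleosomes. Of 9 listed genes 8 could be tested from MII to PN5, and 0 were called higher and 4 lower, with a median of -0.76, beside 8.77% of all genes higher and 9.23% lower. Hmgb2, an HMG-box protein, was at 104 FPKM in MII, 37.5 in PN5, 37.3 in early 2-cell, 24.2 in control and 22.8 in mTBE. Hmgn1, a nucleosome-binding member, was at 193, 246, 208, 101 and 134 FPKM, and Hmga1, an AT-hook protein, at 46.9, 40.1, 44.7, 26.0 and 33.3 FPKM. Hmgb1 was at 28.0, 13.4, 12.5, 10.3 and 20.7 FPKM. From PN5 to control 4 of 9 were called higher and 1 lower, beside 30.5% and 17% of all genes, though each of the 4 genes named here was lower in control than in PN5. In mTBE against control 0 were called in either direction, beside 5.57% and 9.99%.

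The machinery that makes stem-loop histone mRNA was listed as 15 genes. From PN5 to early 2-cell 0 were called higher and 8 lower, and from early 2-cell to control 9 were higher and 1 lower. Of all genes 39.2% were lower over the earlier step and 49.6% higher over the later one, with medians of -0.77 and 0.99, so the list stood near the other genes. The list median over the later step was 1.33, and after rescaling to an equal sum the list medians were -0.30 and 0.66. Slbp, the protein that binds the stem-loop, was at 264 FPKM in MII, 518 in PN5, 323 in early 2-cell, 118 in control and 77.7 in mTBE. It was highest in PN5 and lowest in mTBE. Casp8ap2, a component of the histone locus body, was at 24.6, 57.8, 12.2, 68.1 and 74.7 FPKM. Ncbp2, of the cap-binding complex, was at 22.5, 40.2, 19.6, 35.9 and 37.7 FPKM, and Lsm10, of the U7 particle that cuts histone transcripts, at 59.7, 18.2, 13.8, 36.2 and 24.9 FPKM.

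The list of core histone variants held genes that moved in different directions. From MII to control 5 of 10 were called higher and 1 lower, with a median of 0.92, not far from the 36.8% and 17.9% of all genes. H3f3b, a gene of the H3.3 replacement histone, was at 218 FPKM in MII, 349 in PN5, 239 in early 2-cell, 438 in control and 608 in mTBE. H3f3a, which encodes the same protein, was at 221, 140, 72.9, 30.9 and 57.3 FPKM. The germ-cell H2B gene Hist1h2ba was at 185, 232, 75.2, 408 and 559 FPKM. Unlike H1foo, it stood above its MII level in both late 2-cell libraries, by a factor that depends on the scaling between tables. H2afx, whose product marks DNA breaks, was at 68.8, 81.3, 133, 357 and 289 FPKM.

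Chaperones of the core histones were a list of 14, of which 13 were in all tables. From MII to control 0 of 13 were called higher and 2 lower, with a median of 0.03, beside 36.8% and 17.9% of all genes. Chaf1a, a subunit of the replication-coupled assembly factor, was at 199 FPKM in MII, 164 in PN5, 113 in early 2-cell, 40.1 in control and 23.3 in mTBE. Nap1l4 was at 146, 212, 140, 124 and 106 FPKM. Of the H3 and H4 chaperones, Asf1a was at 57.9, 126, 22.3, 35.6 and 61.0 FPKM and Asf1b at 38.8, 75.2, 38.6, 69.1 and 101 FPKM, each higher in PN5 than in MII and early 2-cell.

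The 2 ICM libraries are given as a note, because poly(A) priming leaves out most stem-loop histone mRNA and no level can be compared with the total RNA libraries. H1foo was listed at 0 in replicate 1 and at 3.79 FPKM in replicate 2. Hist1h1b was at 43.7 and 30.9 FPKM (37.3 ± 9.08, SD, n = 2) and Hist1h1e at 35.1 and 43.7 FPKM (39.4 ± 6.07, SD, n = 2). Hist1h1a was at 11.1 and 10.7 FPKM (10.9 ± 0.296, SD, n = 2). Within this protocol Hist1h1b and Hist1h1e stood above Hist1h1a in each library, and their ranges overlapped.

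The other somatic genes had means below those of Hist1h1b and Hist1h1e in ICM, H1f0 at 13.4 ± 6.83, Hist1h1c at 12.75 ± 4.68 and Hist1h1d at 6.38 ± 1.33 FPKM (SD, n = 2). Hist1h1a made up 9.80% and 8.19% of the 7 genes in the 2 libraries, and H1foo 0% and 2.91%. Markers of the ICM summed to 408 and 315 FPKM, mostly from Pou5f1 (280 and 163) and Nanog (105 and 133). Sox2 was at 5.25 and 2.85 FPKM, Klf4 at 8.64 and 11.5 and Fgf4 at 9.23 and 4.94. The same list summed to 153 FPKM in MII and 323 in mTBE, under the other protocol. Markers of trophectoderm, the outer layer of the blastocyst, summed to 1753 and 1496 FPKM, with Krt18 at 1116 and 991 and Cdx2 at 31.4 and 22.1. Their part in the ICM values was not tested.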

How the data were processed

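The authors deposited FPKM per gene symbol for 5 total RNA libraries and 2 ICM libraries, in 4 tables. Build mm9 and the tools TopHat2 2.1.1, Cufflinks 2.1.1 and CASAVA 1.8 are listed without a role, per the submitters' processing notes. How reads with several matches and strand were treated is not given in the sources used here, and read depth is unknown. The MII column bears a name that a chromatin sample also bears. It was taken as the MII total RNA library because its table is listed with that sample. There were 0 value columns without a sample.

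Repeated rows of a symbol were summed. Differences were taken as log2(FPKM + 1), with a pseudocount of 1 FPKM, which understates folds of low genes. The filter was 1 FPKM in either library and the size rule a difference of 1. Named genes were the members, up to 4 genes of highest mean level per list, and the 5 nearest profiles to H1foo and to Hist1h1a. Mos, Gdf9, Padi6, Zar1, Fshr, Inha, Serpine2, Cyp19a1, Amhr2, Tnfaip6, Foxl2, Prm1, Prm2 and Tnp1 were named from fixed lists after their values were seen. So were Pou5f1, Nanog, Sox2, Klf4, Fgf4, Krt18 and Cdx2. The members and lists were chosen with earlier results of these data known. Alternatives were a pseudocount of 0.1, filters of 5 FPKM and none, 2 other scalings and the highest of repeated rows. The code of the size rule was run on a copy of the MII library with known changes and no noise. That run checks the code only and says nothing of calls between single libraries. Python 3.11.15, numpy 2.4.6, pandas 2.3.3 and matplotlib 3.10.9 were used.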

Additional observations from a re-analysis of the deposited data

How the results depend on the processing

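Over 333 member differences under other settings, 312 stayed on the same side of the size rule with the same direction, 11 no longer passed it, 10 newly passed it and 0 called values changed sign. Differences below the rule did change sign under the 2 scalings, 4 times for Hist1h1c, 2 for H1f0 and 1 each for Hist1h1b and Hist1h1e. H1foo held in 46 of 48, and missed the rule from PN5 to early 2-cell with -0.58 (equal sum) and -0.45 (median ratio set to 0). Somatic genes called higher numbered 1 and 0 under these scalings for MII to PN5, 5 and 4 for PN5 to early 2-cell, and 1 and 1 for early 2-cell to control, against 2 in each case as deposited. Without Hist1h1a the H1foo share was 94.4%, 75.3%, 44.7%, 21.2% and 17.6% in stage order with mTBE last. The H1foo share in ICM was 2.91% without replicate 1 and 0% without replicate 2. With a pseudocount of 0.1 FPKM Hist1h1b differed by 2.11 from MII to PN5, against 0.90. Of the 5 profiles nearest H1foo 4 remained among genes from 50 FPKM, and 3 of those nearest Hist1h1a. Both scalings keep every ratio within a library. The equal sum also makes the unchanged pseudocount of 1 FPKM smaller relative to the levels. Counts of all genes called moved by over 1.5 times in these cases, equal sum before median ratio. From MII to PN5, 989 genes lower became 1870 with the equal sum, and 939 higher became 345 with the median ratio. From MII to early 2-cell, 425 higher became 2038 and 913, and 3075 lower became 1597 with the median ratio. From PN5 to early 2-cell, 732 higher became 2815 and 1548, and 4243 lower became 2644 and 1730. From early 2-cell to control, 1132 lower became 3073 and 1817. For mTBE against control, 765 higher became 1859 and 1371 lower became 2106 with the equal sum, and 765 became 1432 with a pseudocount of 0.1. With a filter of 5 FPKM the genes higher went from 425 to 173 (MII to early 2-cell), 4884 to 3159 (MII to control), 732 to 333 (PN5 to early 2-cell), 3970 to 2331 and 3963 to 1818 (PN5 to control and mTBE) and 765 to 245 (mTBE against control). No paired analysis was possible because each total RNA group held 1 library.

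The limits are the same for each value. There is 1 library per group, depth is unknown, and 3 of the tables set side by side were normalised separately. Low levels, such as those of Hist1h1b before the late 2-cell stage, cannot be given a counting error.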

Other observations

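Protein-coding genes that lie next to members on the RefSeq map were chosen by position after the levels of the members were seen. Next to H1foo, Plxnd1, a semaphorin receptor gene, was at 1.93 to 2.65 FPKM in the 5 total RNA libraries. Next to Hist1h1a, the core histone gene Hist1h3a was at 54.8 FPKM in MII, 119 in PN5, 105 in early 2-cell, 320 in control and 374 in mTBE, and Trim38, a ubiquitin ligase gene, was at 0.434 to 1.62 FPKM. The Hist1h3a level stood far below that of Hist1h1a in every library.

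Next to Hist1h1b, Hist1h3i was at 2.40 FPKM in MII, 0.357 in PN5, 18.4 in early 2-cell, 73.0 in control and 49.3 in mTBE. Hist1h2bn, on the other side, was at 16.7, 0, 32.3, 14.6 and 13.3 FPKM. Next to Hist1h1c, Hist1h3c was at 6.37, 7.18, 28.3, 122 and 45.2 FPKM, and Hfe did not pass 0.205 FPKM. Like the linker genes beside them, Hist1h3i and Hist1h3c had their highest levels in the late 2-cell libraries. Hist1h2bn was highest in early 2-cell. High late 2-cell levels were not particular to these neighbours. From PN5 to control 50 of 54 core histone genes were called higher, beside 30.5% of all genes.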
